A study of Homo sapiens with 4 samples.

Results

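The genes of the PI3K, AKT and mTOR pathway were followed in U87 cells, an established human glioma line, with and without a hairpin against PTPRN. The set holds 39 genes, chosen by name as core kinases, adaptors, phosphatases, complex subunits and direct targets of the pathway, and every one of them had a row among the 27940 gene symbols of the deposited tables. Of these, 35 reached a mean of 1 FPKM (a fragment count corrected for gene length and library depth) and were tested among 11394 genes. By the textbook role of the protein, 20 members were counted as activators of the pathway and 11 as inhibitors. The other 8 were counted on neither side, because regulatory subunits can act both ways and because GSK3 and FOXO proteins are targets that AKT holds back.

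Growth factor receptors and their adaptors bring PI3K to the membrane, where it makes the lipid PIP3, and PIP3 recruits AKT and its activating kinase PDPK1. AKT restrains the TSC complex, which frees RHEB to switch on the kinase mTOR, and it keeps FOXO transcription factors out of the nucleus. The pathway is known in glioma for its frequent activation, and much of its control acts on the phosphorylation of proteins, which transcript levels do not report.

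The series compared 2 groups of 2 RNA-seq libraries. The control cells, shNC, were infected with lentivirus made from the empty FUGW-H1 vector according to the treatment protocol, while H1-RFP (WT) is the control's name in the design text, so which vector was used is uncertain. The knockdown cells, shPTPRN3, were infected with lentivirus carrying 1 hairpin against PTPRN, which encodes a receptor-type phosphatase family protein of secretory vesicles. Both groups were of the same line, grown in DMEM with 10% fetal bovine serum at 5% CO2, and libraries were made from 1 ug of RNA with a stranded mRNA kit. The replicates are called biological, but separate cultures are not mentioned. The p-values below therefore rest on the variation among 4 libraries alone, and that variation can be technical. With 1 hairpin, an effect of the loss of PTPRN and an effect of the hairpin itself cannot be told apart. The hairpin's target is shown because any effect on a pathway transcript through its sequence would start from it. Capitals mark the 7 bases that would pair with bases 2 to 8 of the guide if the antisense strand is the guide.
hairpin target: ggaagtctgtattCAGGATGg
The whole 21-base target was found in the longest GENCODE 29 transcript of PTPRN and of no member. The 7-base site was present in the transcripts of 17 of 35 tested members (48.6%), AKT1, AKT2, PHLPP2 and FOXO4 among them, against 36.7% of 11013 tested genes with a transcript. These shares were not matched for length. The members' median transcript was 5735 bases long, against 3306 over all genes tested, and a longer transcript holds more 7-base stretches. The site's part in the values below was not tested.

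PTPRN stood at 27.6 and 19.8 FPKM in shNC replicates 1 and 2 and at 4.96 and 3.62 in shPTPRN3 replicates 1 and 2. FPKM are given here and below after scaling each library by its median ratio, unless called deposited. The knockdown libraries were both below the controls, a 5.52-fold lower mean, with a log2 difference of −2.22 ± 0.34 (SE, n = 2 per group) and a limma adjusted p of 0.0594 (0.0270 without genes listed at 0). Depth, estimated from the widths of deposited confidence intervals, was 23.4 and 14.5 M fragments in the shNC libraries and 36.6 and 15.2 M in the shPTPRN3 libraries. Of 9 glial and mesenchymal markers, 5 reached a mean of 1 FPKM (VIM, CD44, FN1, CHI3L1 and NES), while GFAP was listed at 0 in every library and S100B, OLIG2 and SOX2 were below 1. The 9 summed to between 1615 and 3149 deposited FPKM. Markers of other lineages stayed low, with sums of 0.485 to 0.847 for 5 immune genes, 1.84 to 3.68 for 5 epithelial genes and 0.728 to 1.45 for 5 endothelial genes. In bulk RNA, fewer cells of a kind and less RNA per cell cannot be told apart.

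No pathway gene passed the test between the groups. FOXO4, a transcription factor that AKT phosphorylates, and PHLPP2, a phosphatase that acts on AKT, had the largest differences of the 35 tested members, both toward higher values in shPTPRN3. AKT1 had lower values in both knockdown libraries, and its paralogue AKT2 had higher ones. Differences toward higher values were spread over activators and inhibitors alike.

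In limma's test across all genes, 48 of 11394 genes passed an adjusted p of 0.05 (0.421%), and 0 of the 35 members did. Leaving out genes listed at 0 in any library raised the calls to 219 of 11127 genes (1.97%), and still 0 members passed. At an unadjusted p under 0.05 there were 2 members, FOXO4 and PHLPP2 (5.71% of 35), against 1533 of all genes (13.5%). Both knockdown libraries lay above both controls for 12 members (34.3%), against 2449 of all genes (21.5%). Both lay below the controls for 2 members, AKT1 and MLST8 (5.71%), against 2636 of all genes (23.1%). The groups overlapped in the other 21.

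Log2 differences (shPTPRN3 minus shNC, on the log2(scaled FPKM + 1) scale, which understates the differences of low genes) ran from −0.47 to 1.27 over the tested members, with SEs of 0.29 to 0.56. Their median was 0.33, the quartiles were 0.00 and 0.49, and 26 of 35 were positive (74.3%). Over all genes tested the median was −0.01 and 49.5% were positive. Between the libraries numbered 1 the members' median difference was 0.29, and between those numbered 2 it was 0.33. The median rested on single libraries. It was 0.05 without shNC replicate 1 and 0.10 without shPTPRN3 replicate 2, with 19 and 23 of the differences positive, and it was 0.37 without shNC replicate 2 and 0.44 without shPTPRN3 replicate 1.

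**Figure D1:**
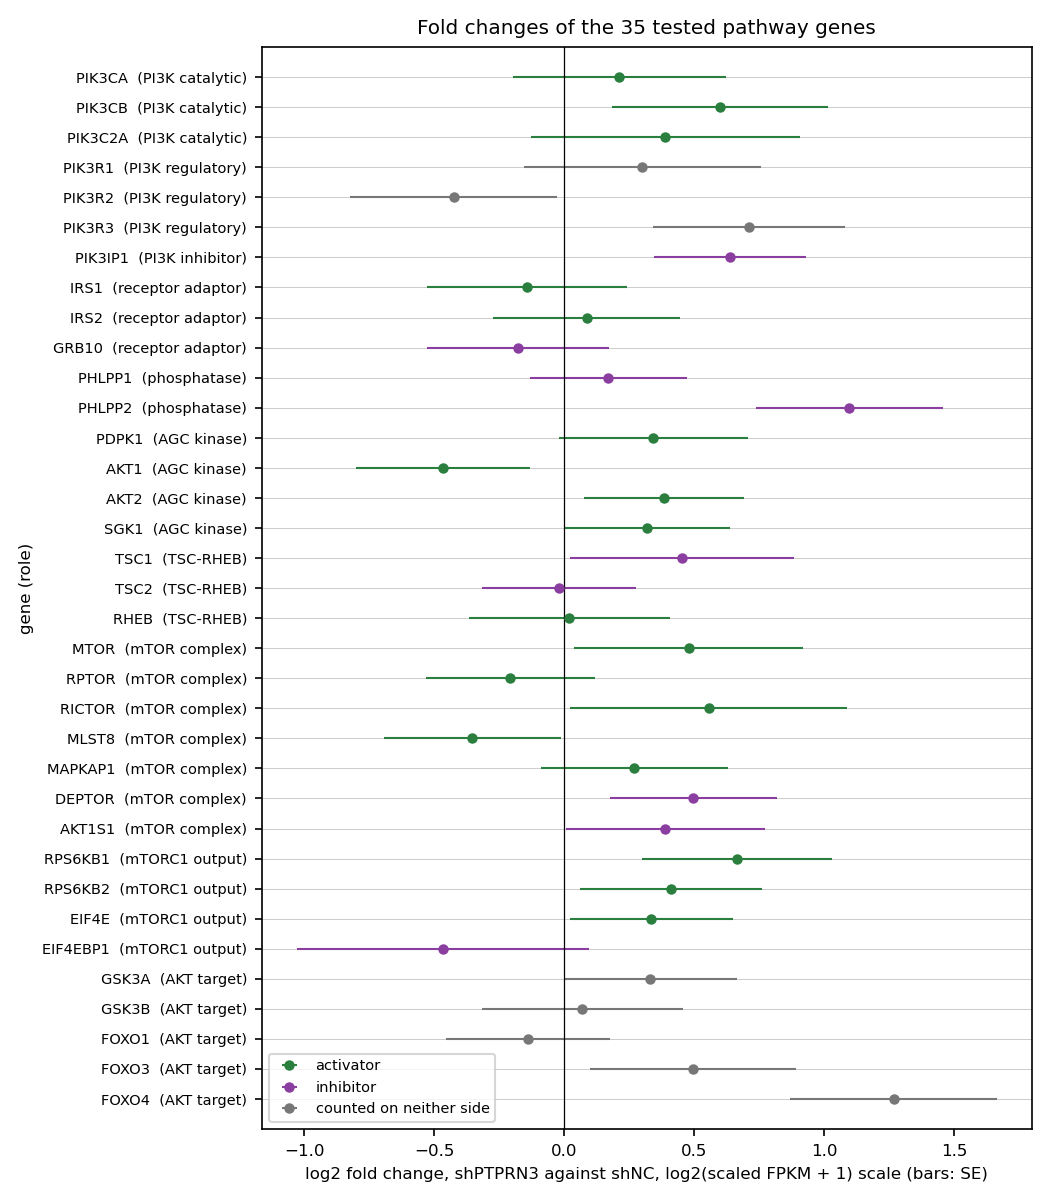
Log2 difference of each of the 35 tested members (x axis, log2(scaled FPKM + 1) scale, shPTPRN3 minus shNC), ordered by role on the y axis and coloured by side, with bars of 1 SE from limma. FOXO4 at 1.27 and PHLPP2 at 1.10 stand farthest from 0, and activators and inhibitors lie on both sides of it.

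Activators and inhibitors were set against each other to see whether the pathway's accelerators and brakes moved apart. The 18 tested activators had a median log2 difference of 0.33, with 14 positive, 5 with both knockdown libraries above the controls (27.8%) and 2 with both below (11.1%). The 9 tested inhibitors had a median of 0.39, with 6 positive, 4 with both knockdown libraries above (44.4%) and 0 with both below. Over all genes tested these shares were 21.5% above and 23.1% below. The filter shaped the inhibitors' counts. PIK3IP1 and DEPTOR, both above, averaged 0.735 and 0.678 FPKM in shNC and passed it through their knockdown values. INPP5D, an inhibitor lower in both knockdown libraries, did not pass it. With all genes above 0 kept, the median was 0.17 for inhibitors and 0.33 for activators. The gap between the medians, activators minus inhibitors, was −0.06. It turned positive, to 0.19 without shNC replicate 2 and to 0.12 without shPTPRN3 replicate 1, and was 0.31 over members at a mean of 5 FPKM or more. The mean log2 level of activators minus that of inhibitors was 0.28 and 0.61 in shNC replicates 1 and 2 and 0.20 and 0.54 in shPTPRN3 replicates 1 and 2. Replicate 2 was the higher library in each group, the groups overlapped, and no p is given for these scores, because the members were chosen with results known.

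FOXO proteins bind a core of GTAAACA in DNA, and AKT controls their entry to the nucleus, so the promoters of the members were searched for that core on both strands. Promoters ran from 250 bases before to 50 after a RefSeq gene start (GRCh38.p14), and 34 of 39 members had at least 1, with 63 promoters in all. The core was found in 3 of the 63 (4.76%), against 3.42% of 35116 promoters of all genes, in PIK3CA, PIK3IP1 and FOXO4. Those promoters are printed in full, 5′ to 3′ on the gene's strand, to show where the core lies in each; capitals mark the core or its reverse complement, TGTTTAC. They are PIK3CA at chr3:179148107-179148406 on the plus strand, PIK3IP1 at chr22:31292439-31292738 on the minus strand and FOXO4 at chrX:71095601-71095900 on the plus strand.
PIK3CA: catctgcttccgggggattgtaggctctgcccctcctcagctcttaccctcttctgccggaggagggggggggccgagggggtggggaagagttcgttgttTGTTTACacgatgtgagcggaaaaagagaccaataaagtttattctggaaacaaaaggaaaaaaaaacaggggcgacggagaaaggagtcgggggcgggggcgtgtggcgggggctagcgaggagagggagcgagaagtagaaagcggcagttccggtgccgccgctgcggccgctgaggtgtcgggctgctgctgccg
PIK3IP1: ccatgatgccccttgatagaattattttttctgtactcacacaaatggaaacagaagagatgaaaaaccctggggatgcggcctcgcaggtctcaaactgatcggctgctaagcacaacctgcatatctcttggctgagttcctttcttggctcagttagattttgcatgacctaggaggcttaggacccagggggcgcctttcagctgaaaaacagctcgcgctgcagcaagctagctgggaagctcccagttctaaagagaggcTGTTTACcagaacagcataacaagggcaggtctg
FOXO4: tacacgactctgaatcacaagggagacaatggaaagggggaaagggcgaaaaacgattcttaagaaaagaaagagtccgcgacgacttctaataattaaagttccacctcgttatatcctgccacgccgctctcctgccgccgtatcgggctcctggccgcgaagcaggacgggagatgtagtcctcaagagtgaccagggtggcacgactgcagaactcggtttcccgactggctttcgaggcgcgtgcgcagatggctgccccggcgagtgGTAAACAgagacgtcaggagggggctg
The first base of the core lay 149 bases before the start in PIK3CA. In PIK3IP1 and FOXO4 it lay at positions 17 and 24, counting the start as 1. Of these genes, PIK3IP1 and FOXO4 had both knockdown libraries above the controls, as 21.5% of all genes did, and PIK3CA did not. Among the further pathway genes read below, STK11 held the core (1.19% of promoters). Among the FOXO targets, TXNIP, BCL2L11 and SELENOP held it (9.68%). STK11 and TXNIP overlapped between the groups. BCL2L11 was lower in both knockdown libraries and was not tested, and SELENOP was listed at 0. The E-box TCACGTGA, the element bound by TFEB and related factors that mTORC1 keeps out of the nucleus, was found in 1 member promoter, that of TSC2 (1.59%), against 0.98% of all promoters. TSC2 lay between 6.44 and 6.88 FPKM in all 4 libraries. In the further pathway genes the E-box was found in 3.57% of promoters (EIF4G1, EIF4B and RRAGB), and in the FOXO targets in 3.23% (BBC3). A match describes these letters and is not a measured binding site.

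The catalytic PI3K subunits were low and differed more between replicates than between groups. PIK3CB, the ubiquitous p110 beta, was at 3.31 and 6.28 FPKM in the shNC replicates and at 5.46 and 10.2 in the shPTPRN3 replicates. PIK3CA, p110 alpha, was at 1.52 and 3.51 against 2.08 and 3.95. PIK3C2A, a class II enzyme, was at 3.56 and 9.46 against 5.34 and 11.9. In all of them replicate 2 was the higher library of its group and the groups overlapped, with log2 differences of 0.21 to 0.60 and limma adjusted p of 0.572 to 0.876. PIK3CD, the p110 delta of leukocytes, was listed at 0 in 3 libraries and at 3.62 FPKM in shPTPRN3 replicate 1. It did not reach the mean of 1 FPKM with all libraries. Without shPTPRN3 replicate 2 it did so through shPTPRN3 replicate 1 alone, and its log2 difference of 2.24 there rests on that value. Its row (chromosome 1, 9651731 to 9729114) overlaps that of CLSTN1 on the other strand, at 20.3 to 30.1 deposited FPKM, and the strand setting of the authors' quantification is not given in the sources used here.

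Among the regulatory subunits, which hold and place the catalytic ones, PIK3R3 (p55 gamma, chromosome 1, 46040140 to 46174901, minus strand) was the one whose groups did not overlap. It was at 1.94 and 2.61 FPKM in the shNC replicates and at 3.06 and 6.01 in the shPTPRN3 replicates. The knockdown libraries were both higher, by 1.99-fold in the means, and the log2 difference was 0.71 ± 0.37 (SE) with a limma adjusted p of 0.448. It was 0.33 without shPTPRN3 replicate 2 and 1.10 without shPTPRN3 replicate 1. An uncharacterised locus, LOC101929626, overlaps its row at 0 to 1.10 deposited FPKM. PIK3R2 (p85 beta) was the abundant subunit, at 24.8 and 23.5 against 24.9 and 12.5 FPKM, so only shPTPRN3 replicate 2 stood apart. PIK3R1 (p85 alpha) was at 1.09 and 3.31 against 1.79 and 3.89, with overlapping groups. As a share of the 3 subunits' FPKM, PIK3R3 made up 7.0% and 8.86% in shNC and 10.3% and 26.8% in shPTPRN3.

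PIK3IP1, a membrane protein that binds and restrains p110, was a low transcript with separated groups (chromosome 22, 31281593 to 31292534, minus strand). It was at 0.819 and 0.650 FPKM in shNC and at 1.99 and 1.43 in shPTPRN3, 2.33-fold higher in the means. The log2 difference was 0.64 ± 0.29 (SE), the limma adjusted p was 0.412, and the difference was 0.70 without shNC replicate 1, 0.57 without shNC replicate 2 and 0.80 without shPTPRN3 replicate 2. Without shPTPRN3 replicate 1 it was not tested.

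The adaptors that couple insulin and IGF receptors to PI3K overlapped between the groups. IRS1 was at 7.23 and 14.3 FPKM in shNC and at 9.36 and 9.01 in shPTPRN3. IRS2 was at 3.65 and 6.28 against 4.33 and 6.15. GRB10, an adaptor that dampens these receptors, was at 30.3 and 38.4 against 35.1 and 25.7, and all 3 had limma adjusted p of 0.880 or more.

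Of the phosphatases that oppose the pathway, PHLPP2 had the second largest difference of the tested members (chromosome 16, 71644926 to 71724701, minus strand). It was at 1.78 and 3.34 FPKM in shNC and at 5.38 and 7.66 in shPTPRN3. Both knockdown libraries lay above both controls, by 2.54-fold in the means, and the deposited confidence intervals of the groups did not overlap. The log2 difference was 1.10 ± 0.36 (SE), with an unadjusted p of 0.019 and an adjusted p of 0.256 in limma, and leaving out 1 library at a time gave 0.77 to 1.42. PHLPP1, its paralogue, was at 0.992 and 1.47 against 1.28 and 1.73 FPKM, with overlapping groups. PHLPP2 thus made up 64.2% and 69.4% of the pair's FPKM in shNC and 80.8% and 81.6% in shPTPRN3. Lipid phosphatases among the members did not reach the mean of 1 FPKM and were not tested. INPP4B was at 0.609 and 1.09 against 0.783 and 0.950 FPKM, and INPP5D (SHIP1, a leukocyte enzyme) at 0.965 and 0.571 against 0.295 and 0.375. INPP5D was the lower in both knockdown libraries, and no call is made below the filter.

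**Figure D2:**
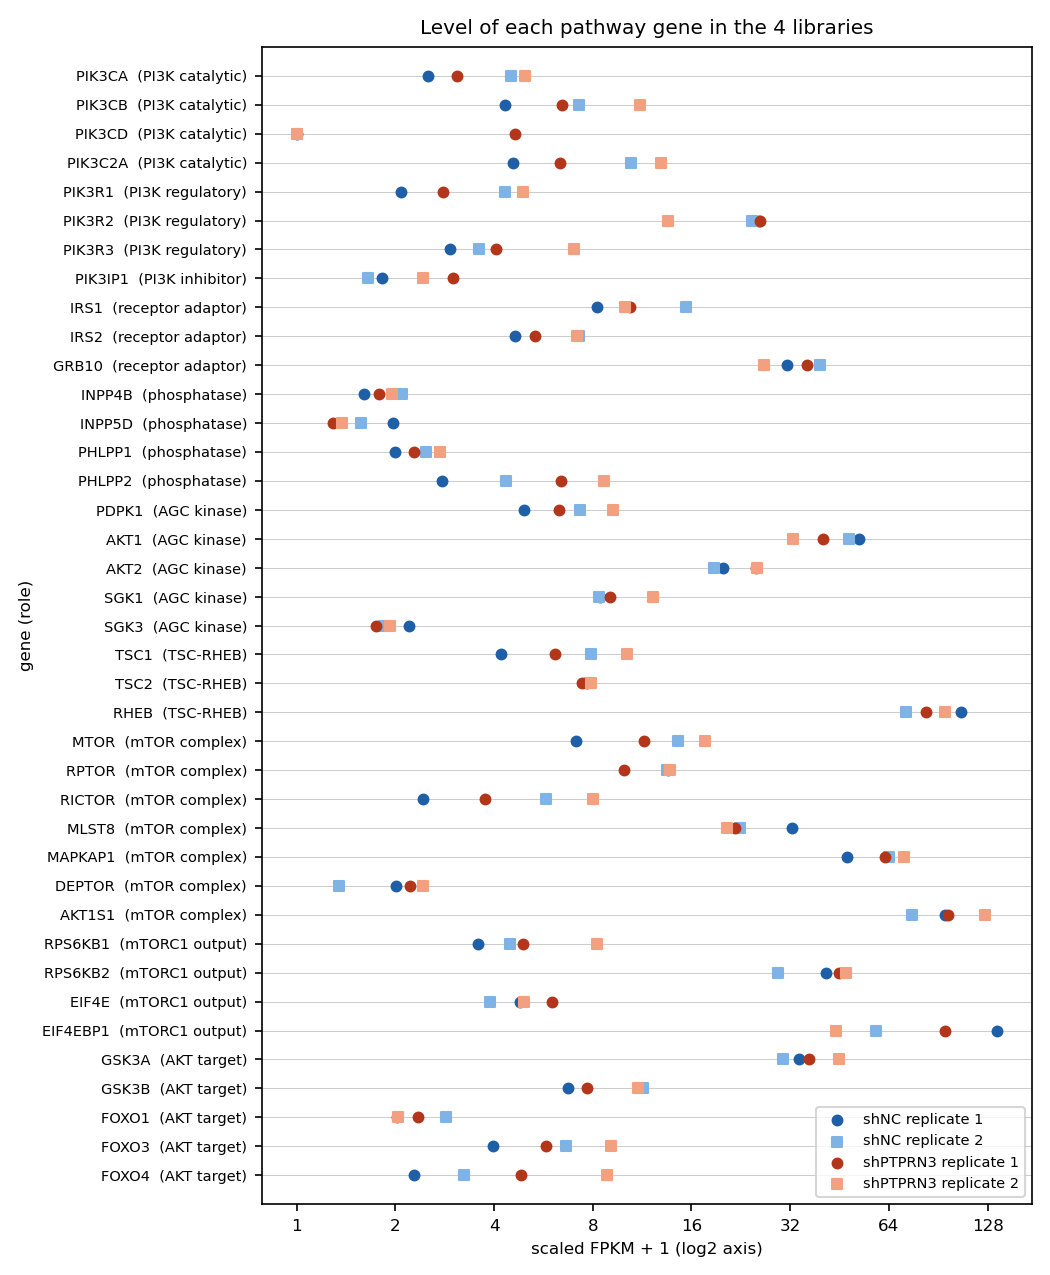
Level of each of the 39 members (y axis, by role) in the 4 libraries (x axis, scaled FPKM + 1 on a log2 axis), with circles for replicate 1, squares for replicate 2, blue for shNC and red for shPTPRN3. Red symbols both lie to the right of the blue ones for PHLPP2 and FOXO4 and to the left for AKT1, and in PIK3CA, PIK3C2A and RICTOR the squares lie to the right of the circles instead.

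AKT1 and AKT2, the kinases at the centre of the pathway, differed in direction. AKT1 (chromosome 14, 104769350 to 104795748, minus strand) was at 50.8 and 47.5 FPKM in shNC and at 39.2 and 31.7 in shPTPRN3. AKT2 (chromosome 19, 40230317 to 40285345, minus strand) was at 19.0 and 17.7 in shNC and at 24.1 and 24.4 in shPTPRN3. The groups of both genes separated, in opposite directions, and so did their deposited confidence intervals. The log2 difference was −0.47 ± 0.34 (SE) for AKT1 and 0.38 ± 0.31 for AKT2, and with limma adjusted p of 0.590 and 0.641 neither passed. Without shPTPRN3 replicate 2 the AKT1 difference was −0.30.

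Since each library is its own reference, the share of a paralogue does not depend on scaling. AKT1 made up 72.8% of the FPKM of AKT1 and AKT2 in each shNC library and 62.0% and 56.5% in shPTPRN3. AKT1 exceeded AKT2 by 2.68-fold in both shNC libraries, by 1.63-fold in shPTPRN3 replicate 1 and by 1.30-fold in replicate 2. The groups did not overlap in this share, which follows from AKT1 being lower and AKT2 higher in both knockdown libraries. The two-sided exact permutation p was 0.333, the smallest that 2 against 2 libraries allow. The summed level of the pair was 69.8 and 65.2 FPKM in the controls and 63.3 and 56.1 in shPTPRN3. Shares within families were looked at after the levels of their members had been seen. Shares also separated the groups for the FOXO and PHLPP genes, PIK3R3 and PIK3CA. They overlapped for the other PI3K subunits, the S6 kinases, GSK3A and GSK3B, IRS1 and IRS2, TSC1 and TSC2, and RPTOR with RICTOR.

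**Figure D3:**
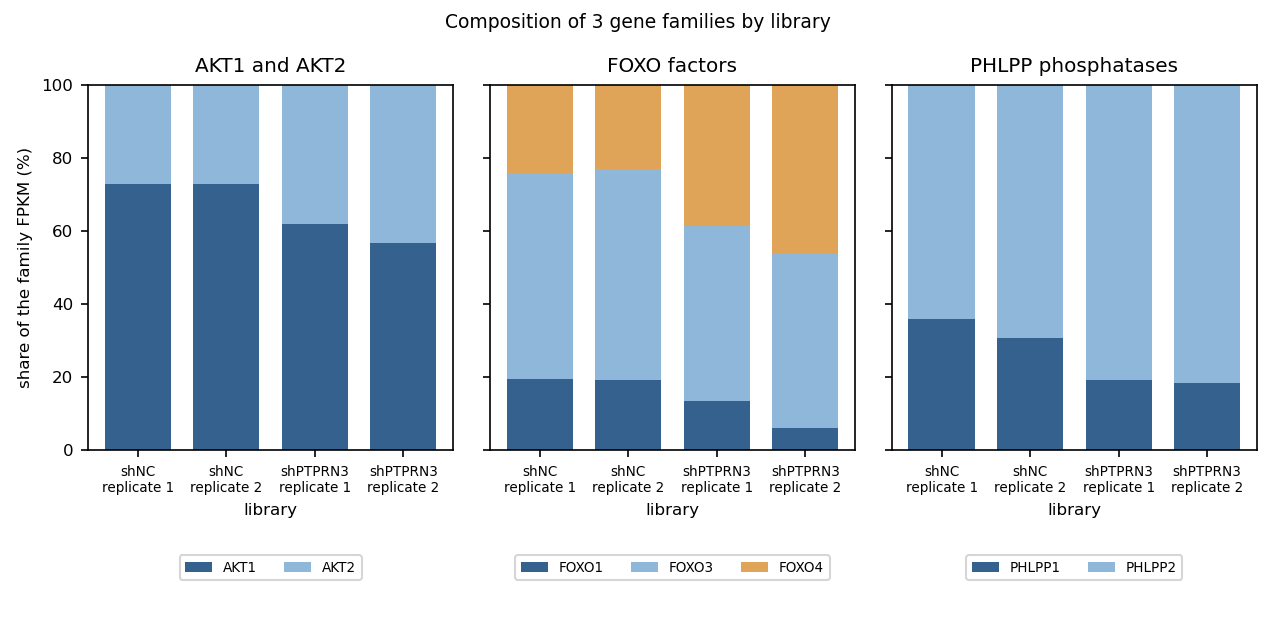
Share of the family's FPKM (y axis, percent) held by AKT1 and AKT2, by each FOXO factor and by each PHLPP phosphatase in each library (x axis). The AKT1 share is 72.8% in both shNC libraries and 62.0% and 56.5% in shPTPRN3, and the FOXO4 share is 24.3% and 23.1% against 38.7% and 46.3%.

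PDPK1, which phosphorylates AKT and S6 kinases in their activation loops, was at 3.92 and 6.34 FPKM in shNC and at 5.31 and 8.19 in shPTPRN3, with overlapping groups. SGK1, an AKT-related kinase induced by serum and glucocorticoids, was at 7.44 and 7.37 against 8.04 and 11.2. Its groups did not overlap, and the log2 difference was 0.32 ± 0.32 (SE), about the size of its error. It was 0.12 without shPTPRN3 replicate 2. SGK3, its relative, was at 1.21 and 0.846 against 0.743 and 0.924 FPKM and was not tested. A readthrough row of C8orf44-SGK3 overlaps it, at 0.356 and 0.731 against 2.46 and 1.79 deposited FPKM, so the SGK3 value depends on how fragments were shared between the 2 rows.

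The TSC complex and RHEB, the switch upstream of mTORC1, showed no separation of the groups. TSC1 was at 3.20 and 6.92 FPKM in shNC and at 5.13 and 9.18 in shPTPRN3. TSC2, the GTPase-activating subunit, was at 6.70 and 6.82 against 6.44 and 6.88, a log2 difference of −0.02 ± 0.30 (SE), and its row overlaps PKD1 on the other strand, at 1.43 to 4.61 deposited FPKM. RHEB, the GTPase that TSC2 switches off, was among the most abundant members, at 105 and 71.3 against 82.1 and 93.7.

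Among the subunits of the mTOR complexes, the kinase and RICTOR differed more between replicate numbers than between groups. MTOR, the kinase, was at 6.13 and 13.5 FPKM in shNC and at 10.4 and 16.6 in shPTPRN3. RICTOR, which defines mTORC2, was at 1.42 and 4.76 against 2.76 and 7.03. Both were higher in replicate 2 of each group, with overlapping groups and log2 differences of 0.48 ± 0.44 and 0.56 ± 0.53 (SE). RPTOR, which recruits substrates to mTORC1, was at 12.5 and 12.4 against 8.94 and 12.7. MAPKAP1 (SIN1), an mTORC2 subunit, was at 46.8 and 63.1 against 61.4 and 70.4. Neither separated the groups. MLST8, a subunit of both complexes, was the only tested member besides AKT1 with both knockdown libraries below the controls, at 31.3 and 21.5 against 20.7 and 19.5 FPKM (chromosome 16, 2205454 to 2209453, plus strand). Its log2 difference was −0.35 ± 0.34 (SE), with a limma adjusted p of 0.711. It was −0.09 without shNC replicate 1 and −0.62 without shNC replicate 2.

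Both inhibitory subunits of mTORC1 had higher values in each knockdown library, as 21.5% of all genes did. DEPTOR averaged 0.678 FPKM in shNC and passed the filter through its knockdown values. AKT1S1 differed by 0.03 on the log2 scale between the libraries numbered 1 and by 0.74 between those numbered 2. DEPTOR was at 1.01 and 0.343 FPKM in shNC and at 1.21 and 1.44 in shPTPRN3, a log2 difference of 0.50 ± 0.32 (SE). AKT1S1 (PRAS40), an AKT substrate, was at 94.0 and 74.2 against 96.2 and 125, a log2 difference of 0.39 ± 0.38 (SE). Neither passed, with limma adjusted p of 0.540 and 0.719. The differences were 0.20 for DEPTOR and 0.22 for AKT1S1 without shNC replicate 2, and DEPTOR was not tested in the other leave-one-out fits. The AKT1S1 row overlaps TBC1D17 on the other strand, which was at 34.6 and 29.8 against 55.1 and 65.5 deposited FPKM, and its part in the AKT1S1 values was not tested.

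The members that carry mTORC1 signals to translation are the S6 kinases, EIF4E and its repressor. RPS6KB1, the S6 kinase S6K1, was at 2.59 and 3.47 FPKM in shNC and at 3.90 and 7.21 in shPTPRN3, a log2 difference of 0.66 ± 0.37 (SE). RPS6KB2, S6K2, was at 40.2 and 28.3 against 44.1 and 46.3, a difference of 0.41 ± 0.35. EIF4E, the cap-binding protein, was at 3.79 and 2.89 against 4.99 and 3.95, a difference of 0.34 ± 0.31. Their limma adjusted p were 0.469, 0.663 and 0.699, so none passed. All 3 had both knockdown libraries above the controls, as 21.5% of all genes did. Their differences were smaller with 1 library left out: 0.31 for RPS6KB1 without shPTPRN3 replicate 2, and 0.16 for RPS6KB2 and 0.18 for EIF4E without shNC replicate 2. EIF4EBP1, the repressor of EIF4E that mTORC1 inactivates, was the most abundant member in shNC and had the widest error. It was at 136 and 57.5 FPKM in shNC and at 93.6 and 43.2 in shPTPRN3, higher in replicate 1 of each group, and its log2 difference was −0.47 ± 0.56 (SE). RPS6KB1 made up 6.05% and 10.9% of S6 kinase FPKM in shNC and 8.13% and 13.5% in shPTPRN3, with overlapping groups.

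Of the targets that AKT phosphorylates directly, FOXO4 had the largest difference of the tested members. FOXO4 (chromosome X, 71095851 to 71103532, plus strand), whose promoter is printed above, was at 1.28 and 2.25 FPKM in the controls and at 3.84 and 7.86 in shPTPRN3. Both knockdown libraries lay above both controls, by 3.32-fold in the means, and the deposited confidence intervals of the groups did not overlap. The log2 difference was 1.27 ± 0.40 (SE), with an unadjusted p of 0.016 and an adjusted p of 0.234 in limma, and leaving out 1 library at a time gave 0.85 to 1.70. FOXO3 was at 2.97 and 5.62 against 4.75 and 8.09 FPKM, and FOXO1 at 1.02 and 1.86 against 1.34 and 1.04. Both overlapped between the groups. FOXO4 made up 24.3% and 23.1% of FOXO FPKM in shNC and 38.7% and 46.3% in shPTPRN3, FOXO1 19.4% and 19.1% against 13.5% and 6.11%, and FOXO3 56.3% and 57.8% against 47.8% and 47.6%. Each share separated the groups, with the exact permutation p at its floor of 0.333. The shares of a library sum to the whole, so these are not separate results. The summed FOXO level was 5.28 and 9.72 against 9.93 and 17.0 FPKM.

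GSK3A, a kinase of glycogen synthase that AKT inactivates, was at 33.1 and 29.4 FPKM in shNC and at 35.4 and 43.9 in shPTPRN3. Both knockdown libraries were higher, with a log2 difference of 0.33 ± 0.33 (SE), and 0.20 without shPTPRN3 replicate 2. GSK3B was at 5.71 and 10.4 against 6.67 and 9.97, with overlapping groups.

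The spread behind these tests followed transcript length. Across the 35 tested members, the log2 difference of shNC replicate 2 minus replicate 1 correlated with transcript length at a Spearman rho of 0.77, and that of shPTPRN3 replicate 2 minus replicate 1 at 0.44. The points share their libraries and these values are descriptions. Over 11013 tested genes with a length, the same rho values were 0.69 and 0.41. The 9 members with transcripts of at least 8000 bases, such as RICTOR, MTOR and PIK3C2A, had a median shNC difference between replicates of 0.90, and the 12 members under 4000 bases one of −0.25. The difference between the groups correlated with length at 0.13 in the members and 0.16 in all genes. Between the libraries numbered 1 the rho was 0.47 in the members and 0.32 in all genes. Between those numbered 2 it was −0.16 and −0.02. With trends of length and GC content removed from each library, the members' median difference was 0.28, with 24 of 35 positive. FOXO4 then had 1.27 and a limma adjusted p of 0.139, and PHLPP2 had 0.97 and 0.0751. The median transcript of the tested members was 5735 bases long, against 3306 over all genes tested.

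**Figure D4:**
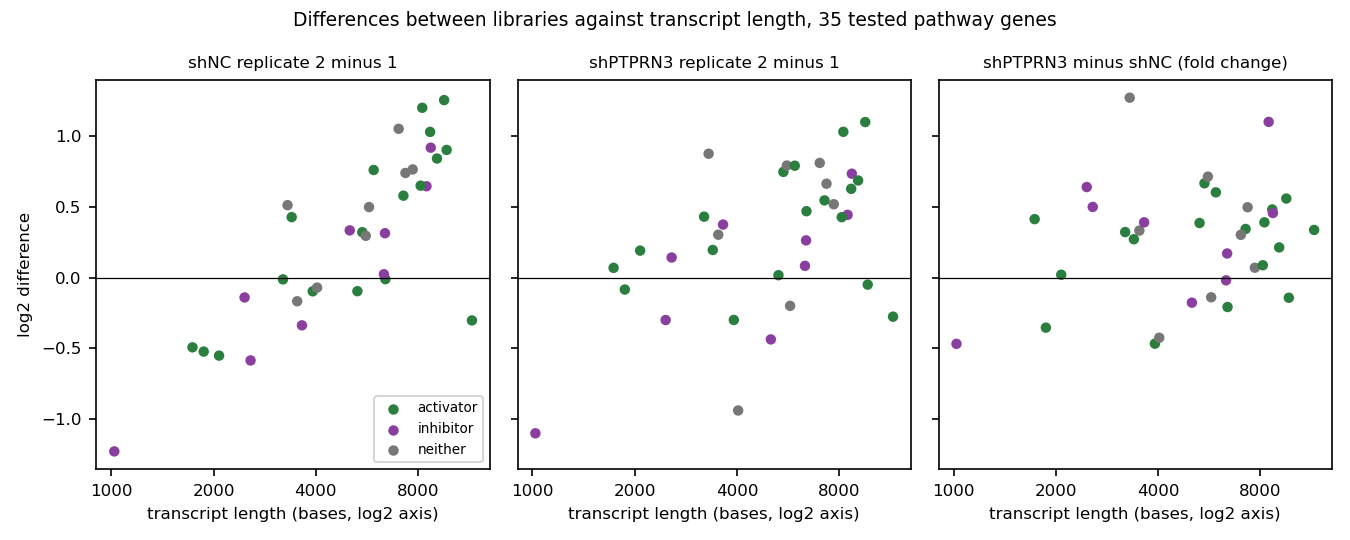
Log2 difference (y axis) against transcript length in bases (x axis, log2 axis) for the 35 tested members, between shNC replicates, between shPTPRN3 replicates and between the groups, coloured by side. The points climb with length between the shNC replicates (rho 0.77) and less between the groups (rho 0.13).

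The rest of the pathway was read from a list of 64 further genes (kinases, Rag GTPases, sestrins, translation factors and others), of which 51 were tested. None was called, against 0.421% of all genes, and 3 higher and 1 lower had an unadjusted p under 0.05 in limma (7.84%, against 13.5% of all genes). The median log2 difference was 0.22 and 35 were positive. Both knockdown libraries lay above the controls for 16 (31.4%, against 21.5% of all genes) and below for 7 (13.7%, against 23.1%). The largest positive differences were in the sestrins SESN2 and SESN1, sensors of amino acids and stress that restrain mTORC1. SESN1 was at 4.81 and 5.76 FPKM in shNC and at 14.4 and 12.2 in shPTPRN3, a log2 difference of 1.19 ± 0.31 (SE) with a limma adjusted p of 0.168. SESN2 was at 11.6 and 8.80 against 19.9 and 31.3, a difference of 1.22 ± 0.36 with an adjusted p of 0.209. For both, the 2 knockdown libraries were above the controls, by 2.52-fold and 2.51-fold in the means.

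The Rag GTPases, which bring mTORC1 to the lysosome when amino acids are present, split. RRAGC was at 26.2 and 30.5 FPKM in shNC and at 36.7 and 63.9 in shPTPRN3, while RRAGD, its close paralogue, was at 15.3 and 19.2 against 6.95 and 8.19. The log2 differences were 0.76 ± 0.39 and −1.09 ± 0.32 (SE), with limma adjusted p of 0.444 and 0.204. FNIP2, part of a complex that acts on RRAGC and RRAGD, was at 3.93 and 8.51 against 12.5 and 10.2. PDCD4, a translation inhibitor that S6 kinase marks for destruction, was at 4.87 and 7.63 against 8.74 and 13.7. PPP2R5A, a regulatory subunit of the phosphatase PP2A, was at 6.04 and 7.93 against 10.1 and 12.5. Both knockdown libraries were above the controls for these 3 genes. Lower in both knockdown libraries were TELO2 (9.06 and 4.78 against 4.15 and 2.17 FPKM) and TTI1 (9.80 and 10.8 against 6.88 and 6.54), which help assemble mTOR kinase complexes. RPS6, the ribosomal protein that S6 kinases phosphorylate, was at 356 and 234 against 209 and 140. The log2 differences of FNIP2, PDCD4, PPP2R5A, TELO2, TTI1 and RPS6 ran from −0.91 to 0.84 with limma adjusted p of 0.400 to 0.519.

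**Figure D5:**
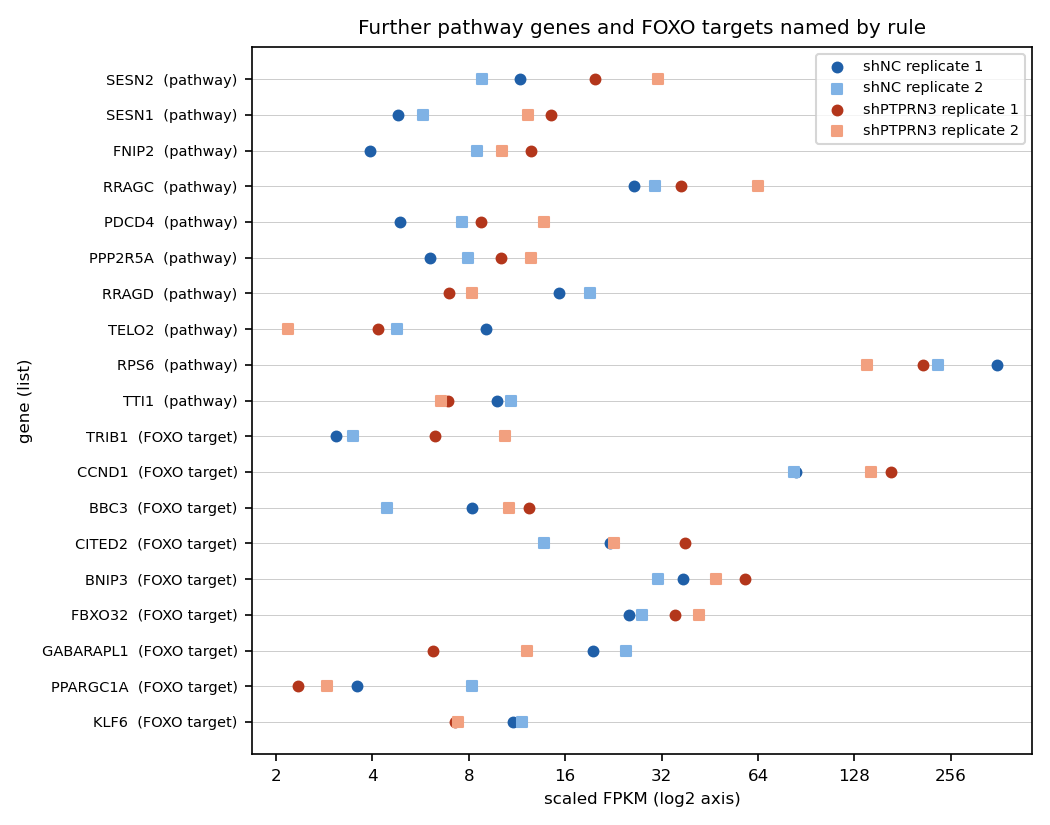
Level of further pathway genes and FOXO target genes with the largest differences among those whose groups do not overlap (y axis, gene and list) in the 4 libraries (x axis, scaled FPKM on a log2 axis), symbols as in the plot of member levels. SESN1, SESN2 and TRIB1 lie to the right in shPTPRN3, and RRAGD and GABARAPL1 to the left.

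Genes known as targets of FOXO factors were read beside FOXO4. Of 32 listed, 20 were tested, 0 were called, and 2 higher and 1 lower had an unadjusted p under 0.05 in limma (15%, against 13.5% of all genes). Their median log2 difference was 0.34, with 14 positive. Both knockdown libraries lay above the controls for 9 (45%, against 21.5% of all genes) and below for 4 (20%, against 23.1%). CCND1, among those above, is known to be repressed by FOXO factors, so the counts mix directions of control and do not read as FOXO activity. TRIB1, a pseudokinase, was at 3.09 and 3.47 FPKM in shNC and at 6.26 and 10.3 in shPTPRN3, a log2 difference of 1.09 ± 0.34 (SE) and a limma adjusted p of 0.238. CCND1, cyclin D1, was at 83.8 and 83.1 against 167 and 144, a difference of 0.88 ± 0.37 with a limma adjusted p of 0.371. In both genes the controls lay close together and below the knockdown libraries.

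The other targets went both ways. Higher in both knockdown libraries were BBC3 (PUMA, a cell death protein), at 8.16 and 4.43 against 12.3 and 10.6 FPKM, and CITED2, a transcriptional co-regulator, at 22.1 and 13.8 against 38.0 and 22.8. So were BNIP3, a mitophagy receptor, at 37.4 and 31.3 against 58.1 and 47.3, and FBXO32 (atrogin-1, a ubiquitin ligase subunit), at 25.2 and 27.7 against 35.2 and 41.9. Lower in both were GABARAPL1, an autophagosome protein, at 19.6 and 24.7 against 6.20 and 12.1, PPARGC1A (PGC-1 alpha) at 3.59 and 8.17 against 2.35 and 2.89, and KLF6 at 11 and 11.7 against 7.24 and 7.38. GABARAPL1 had the largest of these differences, −1.24 ± 0.39 (SE), with a limma adjusted p of 0.236. The lists were drawn up with earlier results of these data known, so their counts are descriptions.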

How the data were processed

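RNA of 4 U87 libraries was sequenced, and the authors deposited Cufflinks gene tables, 1 for each library, whose columns hold FPKM, interval bounds and a status, per the file headers. The submitters' processing notes name FastQC 0.72, STAR 2.6.0b-1, Cufflinks 2.2.1.2 and hg38. Not given in the sources used here are the annotation and the strand setting. These tables hold no counts, so no count model was used and depth is an estimate.

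Of 33646 rows, 651 without status OK in every library were left out, and the rest were summed per symbol. FPKM were scaled by median ratios over 9988 genes (factors 1.04, 0.974, 1.05 and 0.943), and genes that averaged 1 FPKM or more were tested on log2(scaled FPKM + 1) with limma 3.58.1 in R 4.3.3. The test was eBayes with a trend (residual df 2, prior df 4.94), two-sided, with Benjamini-Hochberg adjustment over 11394 genes at a threshold of 0.05. The fit was tested on simulated data. No fold is given for genes listed at 0.

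Transcript lengths are those of the longest GENCODE 29 coding transcript, for 96.7% of tested genes. Promoters are RefSeq's. Python 3.11.15, pandas 2.3.3, numpy 2.4.6, scipy 1.17.1 and matplotlib 3.10.9 were used.

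Members and lists were chosen with earlier results of these data known. Named by rule were up to 12 members per direction with the largest difference among those whose groups do not overlap, and up to 6 further genes per list and direction with at least 5 FPKM in the higher group. The remaining members, shares within families and overlapping genes were described after their values were seen. Alternatives covered scaling, pseudocount, filters, row status, eBayes settings, length and GC trends, a replicate block and leaving out each library.

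Of the 39 members, 12 overlap another gene's row, and for 5 (RHEB, AKT1S1, EIF4EBP1, RPS6KB2 and GSK3A) the deposited FPKM lay outside its own interval in some library, so no interval is quoted for them. Some other pathway genes are not reported here.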

Additional observations from a re-analysis of the deposited data

How the results depend on the processing

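Replicate numbers are shared between the groups, but the labels do not say that they mark a culture or a day. Across 11394 genes the deviations of same-numbered libraries correlated at r = 0.519. With a replicate block, 2 of 35 members were called higher (FOXO4, limma adjusted p = 0.00162, and PHLPP2, 0.00407). Called in either direction were 8 of 51 further pathway genes and 7 of 20 FOXO targets, among 2168 of 11394 genes. These shares were below that of all genes for members and further genes, and above it for targets. The block fit has fewer residual degrees of freedom than the main fit. The targets it called include SOD2, whose log2 difference was 3.98 between libraries numbered 1 and −0.37 between those numbered 2. With the block and with length and GC trends removed, the counts were 2, 3 and 4, among 1110 of 11013 genes. The limma adjusted p were then 0.0258 for FOXO4 and 0.0415 for PHLPP2. Over all alternatives adjusted p ran from 0.00162 to 0.850 for FOXO4 and from 0.00407 to 0.838 for PHLPP2. The fits without 1 library at a time leave 1 library in a group, and calls from them are not counted. PIK3CD entered the fit without shPTPRN3 replicate 2 through its value in shPTPRN3 replicate 1 alone, with a log2 difference of 2.24. Apart from the block fits and those without 1 library, no alternative called a member, a further pathway gene or a FOXO target.

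The members' median log2 difference ran from 0.05 to 0.44 over the leave-one-out fits and from 0.27 to 0.45 over the other alternatives. Activators minus inhibitors was −0.06. It was 0.31 at a mean of 5 FPKM or more, 0.16 with all genes above 0 kept and 0.03 with quantile normalization, and ran from −0.025 to 0.19 over the leave-one-out fits. All 582 values of the 33 named genes under the alternatives kept their sign. These genes were named among those whose groups do not overlap, so leaving out a library could hardly reverse them. The eBayes settings, the replicate block and the removal of genes listed at 0 left their log2 differences unchanged. The count of signs is therefore no test of how firm these differences are. With 2 libraries a group, no single-gene exact test can go below p = 0.333, and low genes such as DEPTOR and PIK3IP1 rest on few fragments.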

Other observations

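SOD2, a mitochondrial superoxide dismutase and a listed FOXO target, was at 7.54 FPKM in shNC replicate 1 and at 325 in shNC replicate 2, and at 134 and 252 in the shPTPRN3 replicates. The deposited FPKM lay outside its own interval in 3 of the libraries, and the overlapping rows of WTAP and ACAT2, which many cells express, were listed at 0 in all 4. The SOD2 value is given as a description of the tables only.

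Outside the rule for named genes, DDIT4L, a stress-induced inhibitor of mTORC1, was at 1.32 and 1.45 FPKM in shNC and at 3.37 and 3.30 in shPTPRN3, a log2 difference of 0.86 ± 0.29 (SE, limma adjusted p = 0.263).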
